A study of Homo sapiens with 12 samples.

Results

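The genes described here encode the nuclear-encoded subunits of respiratory chain complexes I to IV. They were chosen by name from a list of 58 subunit genes, and all 58 were found among the 38516 genes of the deposited table. The list holds 35 genes of complex I, 4 of complex II, 9 of complex III and 10 of complex IV. RNA sequencing had been carried out on 12 libraries. They came from KYSE150 and KYSE510, which are both established cell lines of human squamous cell carcinoma of the esophagus, grown in RPMI-1640 with fetal bovine serum. Each line had 3 control libraries and 3 libraries of cells in which HCP5, a long non-coding RNA gene, was silenced. All 12 libraries came from total RNA, and every title starts with the unexplained letters sh. The silencing and control reagents, and whether the cells of a group were 1 clone or a mixed population, are not given in the sources used here. The title of the series ties HCP5 to apoptosis, MYC and the protein UTP3. The comparisons made here are silenced against control cells in each line, and KYSE510 against KYSE150 control cells.

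The respiratory chain sits in the inner mitochondrial membrane. Complex I, NADH:ubiquinone oxidoreductase, takes electrons from NADH, and complex II, succinate dehydrogenase, takes them from succinate; both hand them to ubiquinone. Complex III, the cytochrome bc1 complex, passes them from ubiquinol to cytochrome c, and complex IV, cytochrome c oxidase, passes them on to oxygen. Complexes I, III and IV pump protons as they do so, and the ATP synthase uses the resulting gradient. Complexes I, III and IV combine subunits made from nuclear genes with subunits made from mitochondrial DNA, whereas complex II is encoded by nuclear genes alone.

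Values are RPKM, reads per kilobase of summed exon length and per library size in reads assigned to genes, so levels of different genes are compared per length. Reads could be recovered from them, and the libraries held 20035025 to 28202422 reads. Every silenced KYSE150 library was deeper than every KYSE150 control. HCP5 itself lay between 0.745 and 0.786 RPKM in KYSE150 control libraries and between 0.315 and 0.579 in silenced ones. In KYSE510 it lay between 0.914 and 1.85 RPKM in controls and between 0.505 and 0.951 in silenced libraries, so those groups overlapped. The limma test did not call HCP5 in either line (adjusted p = 0.267 in KYSE150 and 0.646 in KYSE510; 0.0556 and 0.134 with a replicate block). Of 12 markers of squamous epithelium, 11 were at 0.5 RPKM or more in every KYSE150 library and 12 in every KYSE510 library, SOX2 being the one under it in KYSE150. Of 12 markers of leukocytes, endothelium, fibroblasts and smooth muscle, 11 stayed under 0.5 RPKM in every KYSE150 library and 9 in every KYSE510 library. CD68, also a lysosomal gene, was above it in all 12 libraries, and LYZ was listed at 0 in every KYSE150 library. In KYSE510 libraries COL1A1 lay between 0.501 and 0.800 RPKM, always above 0.5, and ACTG2 between 0.350 and 0.687. In bulk RNA of this kind, fewer cells of a type and less RNA per cell cannot be told apart. The 58 genes took 0.518% to 0.591% of a library's reads, and each had between 111 and 14514 reads in a library.

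Promoter sequence was available for 50 of the 58 genes in a table of RefSeq windows of 300 bases around the gene start (GRCh38.p14). The windows are shown for 3 of the subunits of complex II and for 3 subunits of complex I, because complex II was split between the lines and the other 3 genes hold the largest differences of the NADH-oxidising arm of complex I, in both directions. SDHC had no window in the table. The windows lie at chr5:218070-218369 (plus strand) for SDHA, chr1:17053983-17054282 (minus strand) for SDHB, chr11:112086623-112086922 (plus strand) for SDHD, chr5:1801157-1801456 (plus strand) for NDUFS6, chr5:53560389-53560688 (plus strand) for NDUFS4 and chr12:95003648-95003947 (minus strand) for NDUFA12. Each is written 5′ to 3′ on the strand of its gene. Capitals mark the words GCATGCG (NRF1), CCGGAAG (ETS factors such as GABPA), AAGATGG (YY1), CACGTG (the E-box read by MYC) and AAGGTCA (ERR alpha), or their reverse complements. GCATGCG overlaps its own reverse complement where it is preceded by C, and the run of both is then in capitals.
SDHA: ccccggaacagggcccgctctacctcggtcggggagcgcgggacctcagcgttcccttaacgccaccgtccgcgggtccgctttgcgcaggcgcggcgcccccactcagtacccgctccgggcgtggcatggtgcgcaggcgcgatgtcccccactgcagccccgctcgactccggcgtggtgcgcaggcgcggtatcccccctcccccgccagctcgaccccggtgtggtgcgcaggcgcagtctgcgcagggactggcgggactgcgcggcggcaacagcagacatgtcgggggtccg
SDHB: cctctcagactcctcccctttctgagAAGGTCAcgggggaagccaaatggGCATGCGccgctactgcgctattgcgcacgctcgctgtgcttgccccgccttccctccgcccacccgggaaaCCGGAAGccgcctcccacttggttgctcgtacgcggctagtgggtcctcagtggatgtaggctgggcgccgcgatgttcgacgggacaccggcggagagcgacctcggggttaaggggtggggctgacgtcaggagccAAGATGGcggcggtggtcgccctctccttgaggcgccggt
SDHD: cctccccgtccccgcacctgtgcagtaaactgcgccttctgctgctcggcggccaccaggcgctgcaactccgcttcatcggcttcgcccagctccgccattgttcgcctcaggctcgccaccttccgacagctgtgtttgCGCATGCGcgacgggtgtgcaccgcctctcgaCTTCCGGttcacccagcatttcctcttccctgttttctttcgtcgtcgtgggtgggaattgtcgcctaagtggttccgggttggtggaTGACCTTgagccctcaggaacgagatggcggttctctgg
NDUFS6: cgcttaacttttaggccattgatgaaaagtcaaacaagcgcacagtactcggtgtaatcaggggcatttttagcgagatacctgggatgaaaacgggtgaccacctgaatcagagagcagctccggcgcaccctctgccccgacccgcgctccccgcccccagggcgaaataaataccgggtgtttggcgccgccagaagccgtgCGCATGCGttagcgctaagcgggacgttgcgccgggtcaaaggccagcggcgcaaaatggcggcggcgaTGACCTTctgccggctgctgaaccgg
NDUFS4: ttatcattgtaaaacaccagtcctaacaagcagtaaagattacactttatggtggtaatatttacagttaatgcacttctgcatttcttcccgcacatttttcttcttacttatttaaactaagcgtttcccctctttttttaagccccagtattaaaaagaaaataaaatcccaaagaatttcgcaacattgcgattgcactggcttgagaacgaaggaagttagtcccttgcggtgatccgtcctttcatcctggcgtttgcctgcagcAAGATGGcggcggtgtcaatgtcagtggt
NDUFA12: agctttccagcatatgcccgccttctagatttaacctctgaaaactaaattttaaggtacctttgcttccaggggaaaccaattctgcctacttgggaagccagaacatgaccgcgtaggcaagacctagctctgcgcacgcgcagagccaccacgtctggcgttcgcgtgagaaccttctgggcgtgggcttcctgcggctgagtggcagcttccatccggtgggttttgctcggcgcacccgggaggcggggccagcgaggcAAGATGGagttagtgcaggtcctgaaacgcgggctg

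NRF1, GABPA, YY1 and ERR alpha are transcription factors known to act on many genes of the respiratory chain. The SDHB window held the words for all 4, the SDHD window those for NRF1, ETS factors and ERR alpha, and the NDUFS6 window those for NRF1 and ERR alpha. NDUFS4 and NDUFA12 held the YY1 word alone, and SDHA held none of the 5. Over the 58 windows of the 50 genes, the NRF1 word was present in 10 (17.2%), against 3.91% of all 35116 windows in the table and 5.72% of the 13770 windows of tested genes. The YY1 word was present in 13 (22.4%), against 5.84% and 7.07%. The ETS word was present in 15 (25.9%), against 10.3% and 17.1%, and the ERR alpha word in 9 (15.5%), against 3.92% and 2.67%. The E-box was present in 4 windows (6.90%), against 7.26% and 9.499%. A match describes the letters of the window only, and several genes have more than 1 window.

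In control cells the members were abundant and spread over a wide range. Their median level was 27.3 RPKM in KYSE150 and 25.1 RPKM in KYSE510, where the median of all 17823 genes tested was 3.31 and 3.24 RPKM. All 58 passed the filter of 0.5 RPKM in at least 3 libraries. In KYSE150 controls 10 members lay at 100 RPKM or above and 15 under 10 RPKM; in KYSE510 controls the numbers were 4 and 13. The highest in both lines was NDUFS5, an accessory subunit of the membrane arm of complex I, at 466 ± 83.4 RPKM in KYSE150 and 614 ± 60.7 in KYSE510 (SD, n = 3). The lowest was NDUFS7, an iron-sulfur subunit next to the ubiquinone site of the same complex, at 2.42 ± 0.178 and 2.27 ± 0.349 RPKM.

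In complex II, SDHA, the flavoprotein that oxidises succinate, had the highest level (19.7 ± 1.54 and 38.2 ± 2.50 RPKM in KYSE150 and KYSE510 controls) and the membrane anchor SDHC the lowest (2.86 ± 0.416 and 3.75 ± 0.371). In complex III the hinge protein gene UQCRH led with 418 ± 23.5 and 290.1 ± 36.5 RPKM. The lowest of that complex was UQCRC2, a core subunit, in KYSE150 (14.6 ± 1.82) and UQCRB, the ubiquinone-binding subunit, in KYSE510 (11.9 ± 0.409). These neighbours in the order did not separate: UQCRB stood at 15.1 ± 1.27 in KYSE150 and UQCRC2 at 13.7 ± 1.93 in KYSE510. In complex IV the highest level belonged to COX5B in KYSE150 (140.4 ± 12.8) and to COX4I1 in KYSE510 (86.5 ± 4.801), with COX5B there at 82.9 ± 3.73; both are structural subunits around the catalytic core. COX7B was the lowest in both lines (24.6 ± 3.37 and 19.6 ± 2.91).

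Short genes stood higher: across the 58 genes, level and summed exon length had a Spearman correlation of -0.623 in KYSE150 controls and -0.600 in KYSE510 controls. RPKM divides by that length, so the length enters both measures. Some members overlap other genes or have named pseudogenes, and whether reads were shared between them cannot be seen from the table. The table lists 64 entries taken by name as pseudogenes of 27 of the members. The most abundant were those of UQCRH (up to 36.9 RPKM), SDHA (up to 21.4), COX6A1 (up to 9.21), UQCRB (up to 3.64) and UQCRFS1 (up to 3.59). For UQCRH the search also took in the name UQCRHL, which does not have the form of a pseudogene name. Exon bases were shared with other genes in 29 members. In 8 of them (NDUFA1, NDUFA7, NDUFB2, NDUFB8, NDUFB11, NDUFS7, NDUFV2 and COX8A) the shared part, counted over all overlapping genes, was at least 25%. How the counting treated strand and multiple alignments is not given in the sources used here, so the levels of these genes are uncertain.

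Silencing of HCP5 moved none of the 58 genes past the threshold in KYSE150. The adjusted p of limma was under 0.05 for 0 members, where 0.499% of all genes tested were called. At an unadjusted p under 0.05 there were 8 members: NDUFA12, NDUFB9, NDUFS5, NDUFS7, UQCRB, UQCRH, UQCR10 and COX6A1. That is 13.8% of the members, below the 18.1% of all genes tested. The median log2 change of the members was 0.09, beside 0.08 over all genes tested, and 42 members had a value above 0. With 1 library left out the members' median lay between 0.05 (without control replicate 2) and 0.16 (without silenced replicate 1); it was 0.06 without silenced replicate 2 and 0.13 without control replicate 3. With each library centred on its median the same medians were -0.04 and -0.05, so their sign depended on the scaling, and 23 members were then above 0.

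The smallest adjusted p in KYSE150 belonged to UQCRB, which binds ubiquinone in complex III. Its level was 14.8, 16.5 and 13.99 RPKM in the 3 controls and 11.4, 12.3 and 11.0 in the 3 silenced libraries. All silenced libraries lay below all controls. The log2 change was -0.37 (SE 0.08, adjusted p = 0.0843), and with the replicate block limma gave an adjusted p of 0.024 (0.00174 to 0.295 over all alternatives). In that blocked fit UQCRB was the only member called in KYSE150, where 6.7% of all genes were called. In KYSE510 the controls were at 11.7, 12.3 and 11.6 RPKM and the silenced libraries at 12.2, 12.4 and 10.7, so the groups overlapped, and the log2 change was -0.01 (SE 0.08). The test of the difference between lines did not pass the threshold (adjusted p = 0.394).

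UQCRH of the same complex stood at 445, 401 and 407 RPKM in KYSE150 controls and at 373, 366 and 288 in silenced libraries. These groups did not overlap either, and the log2 change was -0.30 (SE 0.12, adjusted p = 0.239). UQCR10, a small subunit beside cytochrome c1, had values of 75.2, 76.8 and 82.4 in the controls and 80.7, 93.4 and 99.0 in silenced libraries, with a log2 change of 0.22 (SE 0.10, adjusted p = 0.268). Its groups overlapped by 1 library on each side. Without centring on library medians, 6 of the 9 genes of complex III had log2 changes above 0 and 3 below, from -0.37 for UQCRB to 0.23 for UQCR11.

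In complex I the most negative changes in KYSE150 were those of NDUFS5 and NDUFA12, the second an accessory subunit of the NADH-oxidising arm. NDUFS5 was at 478, 542 and 377 RPKM in the controls and 411, 364 and 328 in silenced libraries. The third control lay inside the silenced range, and the log2 change was -0.33 (SE 0.14, adjusted p = 0.244). NDUFA12 was at 168, 155 and 147 RPKM in the controls and 131, 133 and 117 in silenced libraries, without overlap, and its log2 change was -0.30 (SE 0.13, adjusted p = 0.251). The highest log2 changes belonged to NDUFB4, a membrane-arm subunit, at 0.30 (SE 0.15, adjusted p = 0.329), and to NDUFA2, a subunit of the NADH-oxidising arm, at 0.28 (SE 0.15, adjusted p = 0.337). NDUFB4 had 6.50, 7.19 and 9.37 RPKM in the controls and 8.18, 10.1 and 10.2 in silenced libraries, and the groups overlapped. Over the 35 genes of complex I, 27 changes were above 0 and 8 below, without centring on library medians.

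Complex IV held the lowest and the highest log2 change of KYSE150. COX6C, a small structural subunit, was at 60.4, 70.5 and 35.9 RPKM in the controls and 57.5, 38.6 and 31.7 in silenced libraries. The third control was lower than 2 of the 3 silenced libraries, and the log2 change was -0.37 (SE 0.25, adjusted p = 0.448). With 1 library left out it lay between -0.65 (without control replicate 3) and -0.17 (without control replicate 2); it was -0.61 without silenced replicate 1 and -0.18 without silenced replicate 3. COX8A, another small subunit, was at 29.3, 29.6 and 40.8 in the controls and 34.0, 43.0 and 46.5 in silenced libraries, with a log2 change of 0.31 (SE 0.17, adjusted p = 0.345). Here the third control lay above 1 silenced library. Control replicate 3 was the highest of its group for 34 of the 58 members and the lowest for 15. Without it, limma called 3 members in KYSE150, COX6A1 higher and NDUFS5 and UQCRB lower, where 7.22% of all genes were called.

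The 4 genes of complex II had log2 changes between -0.14 and 0.10 in KYSE150. SDHA was at 18.5, 21.4 and 19.0 RPKM in the controls and 16.7, 18.9 and 17.8 in silenced libraries, overlapping groups with a log2 change of -0.14 (SE 0.08). SDHB, the iron-sulfur subunit, had a log2 change of 0.04 (SE 0.10), SDHC one of 0.08 (SE 0.12) and SDHD, the other membrane anchor, one of 0.10 (SE 0.10). The lowest adjusted p among the 4 in limma was 0.414. The values of SDHB, SDHC and SDHD were below 0 after centring on library medians.

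**Figure D1:**
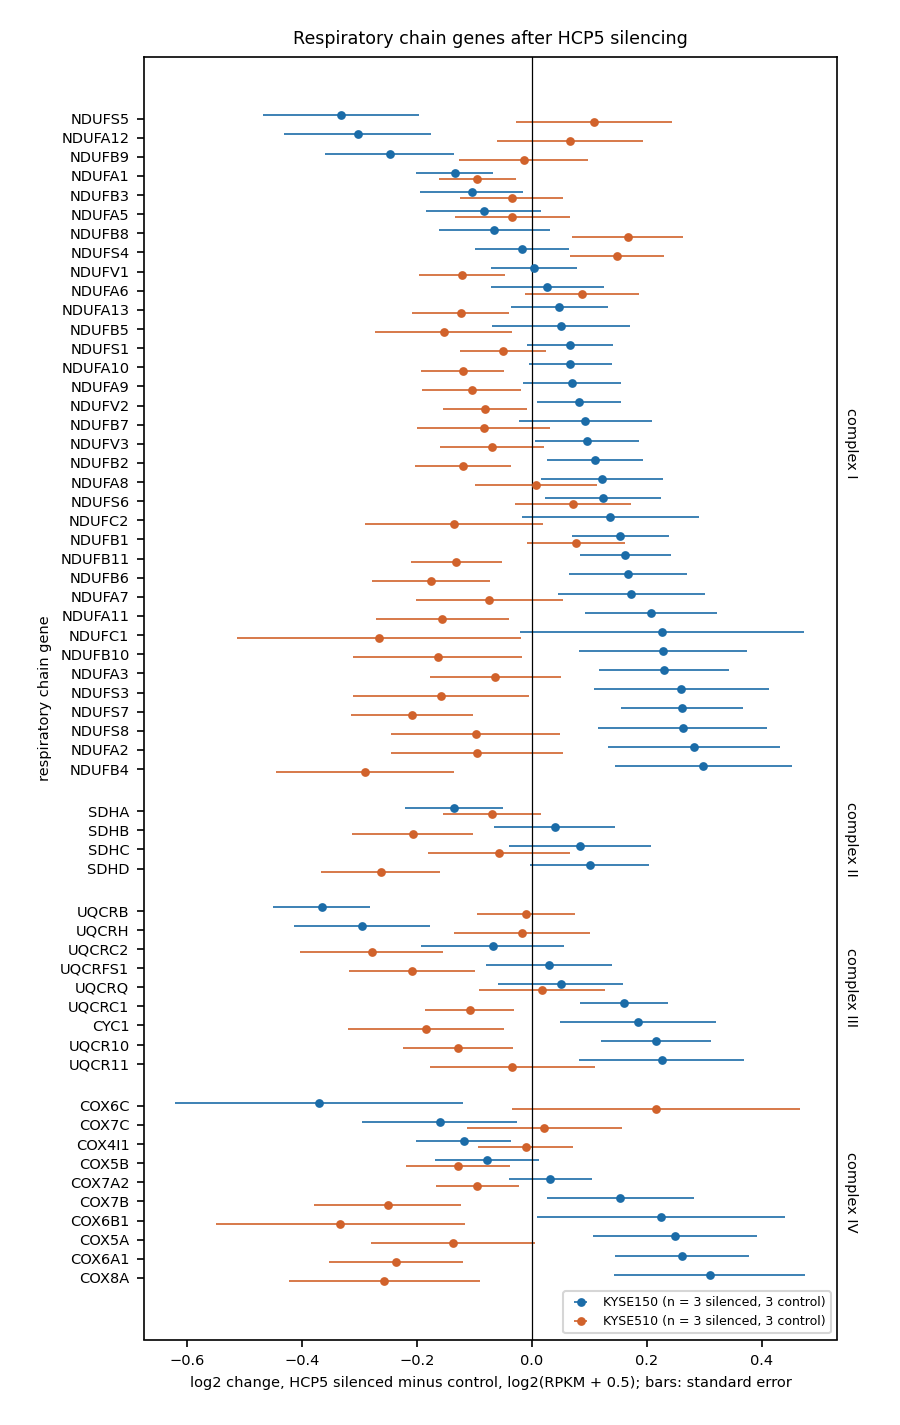
Log2 change of each of the 58 genes between silenced and control libraries on the log2(RPKM + 0.5) scale, with its standard error as a bar, for KYSE150 (blue) and KYSE510 (orange), grouped by complex. No gene passed the threshold in either line, and 37 genes lie above 0 in KYSE150 and below 0 in KYSE510. After centring on library medians, which is not shown, fewer genes lay above 0 in KYSE150.

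In KYSE510, again, 0 of the 58 genes were called, where limma called 0.0393% of all genes, and 2 members, SDHD and UQCRC2, had an unadjusted p under 0.05 (3.45% of the members, beside 6.35% of all genes). With the replicate block 0 members were called, beside 0.112% of all genes. The median log2 change of the members was -0.10, beside -0.02 over all genes, and 47 of 58 were below 0. After centring on library medians these medians were -0.07 and 0.00272. SDHD was at 4.89, 5.32 and 5.98 RPKM in the controls and 4.55, 4.23 and 4.42 in silenced libraries, without overlap, with a log2 change of -0.26 (SE 0.10, adjusted p = 0.699). UQCRC2 was at 11.7, 15.5 and 14.1 in the controls and 11.0, 11.2 and 11.2 in silenced libraries, also without overlap, with a log2 change of -0.28 (SE 0.12, adjusted p = 0.777).

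COX6B1, the subunit that faces the intermembrane space and helps pair complex IV monomers, had the lowest change in KYSE510. Its controls were at 58.0, 76.4 and 75.8 RPKM and its silenced libraries at 50.8, 57.1 and 57.7. The first control was only just above the highest silenced library, and the log2 change was -0.33 (SE 0.22, adjusted p = 0.909). NDUFB4 followed in the same direction, with 8.16, 11.5 and 10.9 RPKM in controls, 7.46, 8.25 and 8.81 in silenced libraries and a log2 change of -0.29 (SE 0.15, adjusted p = 0.856). The highest changes were those of COX6C (0.22, SE 0.25), NDUFB8 (0.17, SE 0.10) and NDUFS4 (0.15, SE 0.08). NDUFB8, a membrane-arm subunit, shares 48.5% of its exon bases with other genes. It was at 89.5, 85.8 and 81.7 RPKM in the controls and 99.4, 96.4 and 92.8 in silenced libraries, and its groups did not overlap. In complex II the log2 changes in KYSE510 were -0.07 for SDHA, -0.21 for SDHB and -0.06 for SDHC.

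Read across both lines, 37 members had a log2 change above 0 in KYSE150 and below 0 in KYSE510, and 6 (NDUFA12, NDUFB8, NDUFS4, NDUFS5, COX6C and COX7C) the opposite. The remaining genes had the same sign in both lines, 5 above and 10 below 0. These sign counts are for values without centring, and the shares of all genes tested with such signs are not given here. After centring on library medians fewer members were above 0 in KYSE150. The median difference between the lines' log2 changes, KYSE510 minus KYSE150, was -0.18 for the members and -0.12 for all genes tested; centred on library medians it was -0.03 and 0.04. Limma called 0 members for that difference, where 0.0% of all genes were called, with or without the block, and 13 members had an unadjusted p under 0.05 (22.4% of the members, beside 12.2% of all genes). For the mean change over both lines it called 0 members, where 0.539% of all genes were called, and 0 with the block, where 2.74% were called. The genes with the largest mean changes were NDUFB1 (0.11), NDUFS6 (0.10) and UQCR11 (0.10) above 0, and UQCRB (-0.19), UQCRC2 (-0.17) and UQCRH (-0.16) below, with adjusted p between 0.237 and 0.796.

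Library by library, in KYSE150, 6 members had all silenced libraries above all controls (NDUFA3, NDUFA7, NDUFB1, NDUFB11, NDUFS7 and UQCRC1), a count to be read against 13.7% of all genes, and 5 had all below (NDUFA1, NDUFA12, NDUFB3, UQCRB and UQCRH), against 5.47%. In KYSE510 only NDUFB8 had all silenced libraries above (5.22% of all genes), and 8 had all below (NDUFA10, NDUFA13, NDUFB7, SDHD, UQCRC2, COX5B, COX6A1 and COX6B1; 6.87% of all genes). No member was without overlap in both lines, whether with the same sign (1.99% of all genes) or with opposite signs (0.645%). Taken by replicate number, 9 members were higher in all 3 silenced libraries of KYSE150 and lower in all 3 of KYSE510: NDUFA11, NDUFB2, NDUFB4, NDUFS7, UQCRC1, UQCR10, COX6A1, COX7B and COX8A. They are 15.5% of the members, beside 7.96% of all genes. The reverse pattern was held by 0 members and 2.81% of all genes.

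When the recovered reads were weighted by their precision (voom) and the replicate number was kept as a block, more genes passed. In KYSE150 this called 11 members, beside 17.8% of all genes: NDUFA2, NDUFS7, NDUFS8, UQCR10 and COX8A rose, and NDUFA12, NDUFB9, NDUFS5, UQCRB, UQCRH and COX6C fell. In KYSE510 it called 0 members, beside 2.14% of all genes. For the mean over lines it called 1, UQCRB, which fell, beside 6.83% of all genes. For the difference between lines it called 10 members, beside 6.68% of all genes: 3 were higher in KYSE510 relative to KYSE150 (NDUFA12, NDUFS5 and UQCRB) and 7 lower (NDUFB4, NDUFS7, UQCR10, COX6A1, COX6B1, COX7B and COX8A). Of these calls, limma on log2 RPKM with the block made only that of UQCRB in KYSE150.

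Summed levels were taken over the genes of each complex. Complex I summed to 1812 ± 34.9 RPKM in the KYSE150 controls and 1733 ± 56.95 in silenced libraries, and to 1829 ± 62.8 and 1850.5 ± 85.6 in KYSE510 (SD, n = 3). Complex II summed to 55.0 ± 2.01 and 55.1 ± 5.03 RPKM in KYSE150, and to 72.6 ± 4.08 and 66.0 ± 2.66 in KYSE510. Complex III summed to 784 ± 16.5 and 736 ± 42.0 in KYSE150, and to 605 ± 27.1 and 580.3 ± 28.6 in KYSE510. For complex IV the sums were 650.5 ± 13.4 and 652 ± 22.0 in KYSE150, and 549 ± 20.4 and 508 ± 14.8 in KYSE510. Silenced libraries lay below all controls for complex II (62.96 to 67.9 against 69.2 to 77.1 RPKM) and complex IV (495 to 524 against 533 to 572 RPKM) in KYSE510 and for complex III in KYSE150 (688 to 765 against 771 to 803 RPKM). A sum is set mostly by its most abundant genes, and no test was made on the sums.

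More members passed the threshold between the lines than with silencing. Between control KYSE510 and control KYSE150, limma called 38 of the 58 genes, 65.5%, beside 62.0% of all genes tested. KYSE510 was higher for 16 members (27.6%, beside 28.3% of all genes) and lower for 22 (37.9%, beside 33.7%). A log2 difference of at least 1 was reached by 3 members, NDUFA12, SDHD and NDUFS4, or 5.17%, beside 21.1% of all genes. The control libraries of the lines did not overlap for 39 members, 67.2%, beside 64.0% of all genes. Among the 38 genes called, 31 also had silenced libraries of the lines apart in the same order, where 86.8% of all genes called between lines did.

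Complex II was split between the lines. SDHA (chromosome 5, 218241 to 256700, + strand, GRCh38) was at 18.5, 21.4 and 19.0 RPKM in the KYSE150 controls and 39.9, 39.4 and 35.3 in KYSE510 controls. SDHD (chromosome 11, 112086773 to 112120013, + strand) was at 14.3, 14.1 and 16.2 RPKM in KYSE150 and 4.89, 5.32 and 5.98 in KYSE510. The lines did not overlap for either gene, and they were ordered in opposite ways. On the log2 scale, KYSE510 minus KYSE150, the difference was 0.94 (SE 0.08, adjusted p = 2.28e-06) for SDHA and -1.38 (SE 0.10, adjusted p = 4.82e-07) for SDHD, the mean SDHD level being 2.76-fold higher in KYSE150.

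SDHB and SDHC were higher in KYSE510, like SDHA. SDHB (chromosome 1, 17018722 to 17054170, - strand) was at 17.1, 17.7 and 17.9 RPKM in KYSE150 and 21.1, 28.3 and 26.2 in KYSE510, a log2 difference of 0.50 (SE 0.10, adjusted p = 0.00149). SDHC (chromosome 1, 161314257 to 161375340, + strand) was at 2.76, 2.51 and 3.32 RPKM in KYSE150 and 3.33, 3.999 and 3.93 in KYSE510. Its libraries were only just apart, with a log2 difference of 0.34 (SE 0.12, adjusted p = 0.0308), and the call was lost with the control libraries alone (adjusted p = 0.0547), with no filter on low values (0.0541) and without KYSE150 control replicate 1 (0.0813) or 2 (0.110) or KYSE510 control replicate 2 (0.0968) or 3 (0.0891). SDHA and SDHB are the catalytic subunits that form the matrix arm, and SDHC and SDHD anchor them in the membrane. The silenced libraries of the lines were apart in the same order for SDHA, SDHB and SDHD. SDHD was at 13.8, 17.2 and 17.2 RPKM in KYSE150 and 4.55, 4.23 and 4.42 in KYSE510. SDHA was at 16.7, 18.9 and 17.8 in KYSE150 and 38.6, 36.8 and 33.8 in KYSE510. For SDHC the silenced libraries overlapped, at 2.65, 3.38 and 3.15 RPKM in KYSE150 and 3.21, 4.04 and 3.52 in KYSE510. The 3 pseudogenes of SDHA in the table reached up to 21.4 RPKM.

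**Figure D2:**
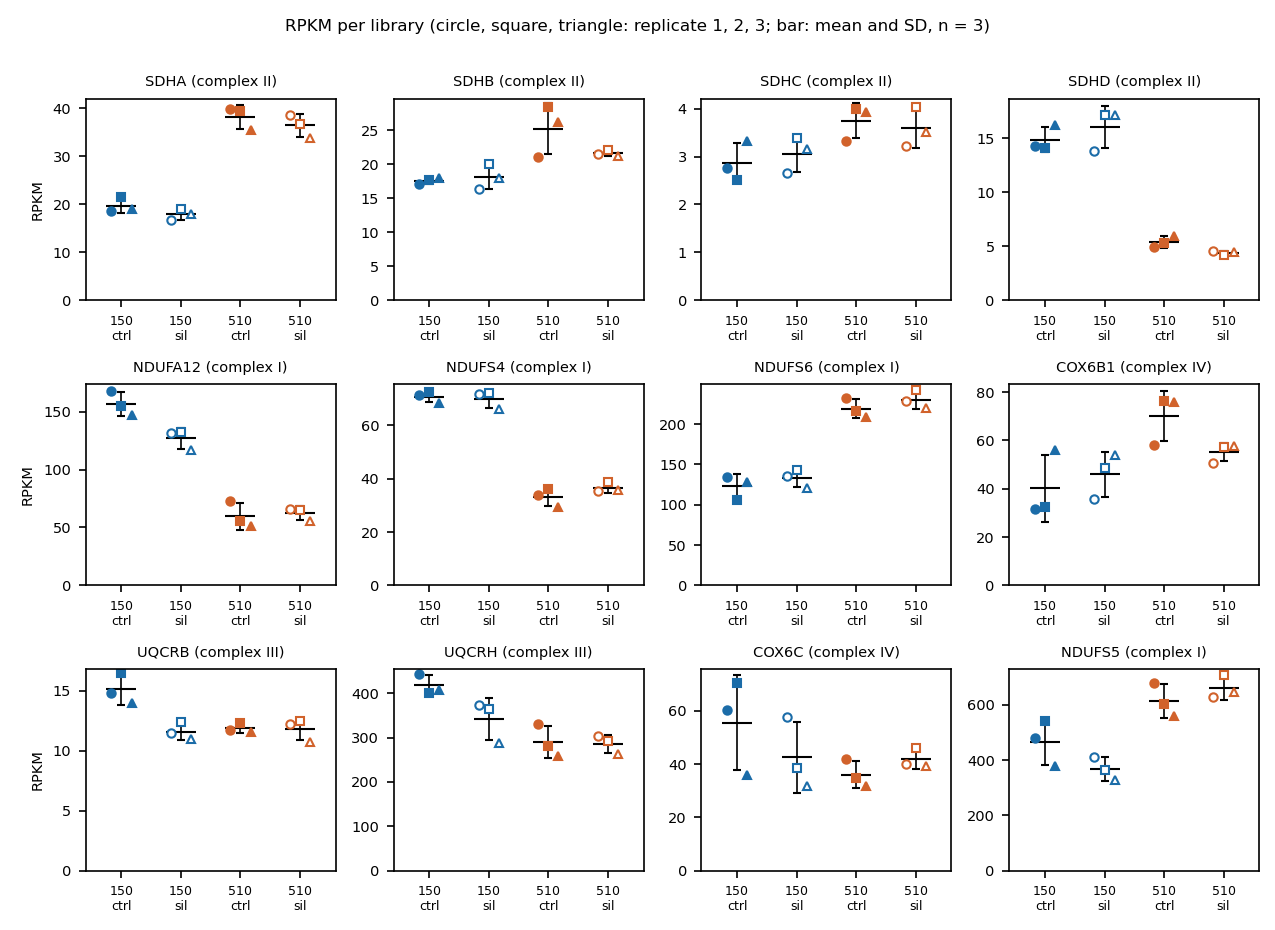
RPKM in every library for 12 genes (control libraries filled, silenced libraries open; KYSE150 blue, KYSE510 orange; circle, square and triangle for replicates 1, 2 and 3; black bars for the mean and SD, n = 3), each panel starting at 0. SDHD, NDUFA12 and NDUFS4 are lower in KYSE510 and SDHA and NDUFS6 higher, while only the KYSE150 groups of UQCRB, UQCRH and NDUFA12 separate by silencing among the genes of complexes I and III shown.

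Complex I had 10 members higher and 14 lower in KYSE510 out of 35, where 28.3% of all genes tested were higher and 33.7% lower. By module, the NADH-oxidising arm had 3 higher and 4 lower of 10, the arm that passes electrons to ubiquinone 0 higher and 2 lower of 5, and the membrane arm 7 higher and 8 lower of 20. The lowest values of complex I, those of NDUFA12 and NDUFS4, lay in the NADH-oxidising arm, which also held NDUFS6, higher in KYSE510. NDUFA12 (chromosome 12, 94897055 to 95003770, - strand) was at 168, 155 and 147 RPKM in the KYSE150 controls and 73.1, 55.5 and 51.0 in KYSE510 controls. NDUFS4 (chromosome 5, 53560633 to 53683340, + strand), a subunit needed for a stable NADH-oxidising arm, was at 71.5, 72.4 and 68.3 RPKM in KYSE150 and 33.9, 36.0 and 29.4 in KYSE510. NDUFS6 (chromosome 5, 1801400 to 1816605, + strand), which binds zinc near the same arm, was at 134, 106 and 128 in KYSE150 and 232, 216 and 209 in KYSE510. Libraries of the lines did not overlap for any of the 3 genes. The log2 differences were -1.39 (SE 0.13, adjusted p = 2.48e-06) for NDUFA12, -1.09 (SE 0.08, adjusted p = 5.10e-07) for NDUFS4 and 0.84 (SE 0.10, adjusted p = 2.28e-05) for NDUFS6.

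In the membrane arm KYSE510 was higher for NDUFA3, with a log2 difference of 0.93 (SE 0.11, adjusted p = 2.63e-05), and NDUFA10, with 0.73 (SE 0.07, adjusted p = 4.84e-06). NDUFA3 (chromosome 19, 54102728 to 54109257, + strand) was at 2.94, 2.18 and 2.88 RPKM in the KYSE150 controls and 4.804, 5.66 and 6.12 in KYSE510 controls. NDUFB7 (chromosome 19, 14566078 to 14572062, - strand), on the intermembrane-space side, was lower in KYSE510, at 63.0, 65.2 and 67.1 against 107, 101 and 142 RPKM, with a log2 difference of -0.82 (SE 0.12, adjusted p = 7.91e-05). NDUFA5 (chromosome 7, 123536997 to 123558255, - strand), an accessory subunit of the ubiquinone-reducing arm, was at 3.604, 4.60 and 3.87 RPKM in KYSE510 and 6.87, 7.68 and 7.49 in KYSE150, with a log2 difference of -0.80 (SE 0.10, adjusted p = 3.34e-05). The summed level of complex I was close in the control groups of the lines, 1812 ± 34.9 and 1829 ± 62.8 RPKM.

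In complexes III and IV more of the called members were lower in KYSE510 than higher, as over all genes tested (28.3% higher, 33.7% lower). In complex III, 2 members were higher and 3 lower in KYSE510 out of 9. UQCRQ (chromosome 5, 132866560 to 132868031, + strand), a small subunit that binds ubiquinone, was at 131, 154 and 111 RPKM in KYSE150 and 72.0, 80.2 and 76.2 in KYSE510, a log2 difference of -0.78 (SE 0.11, adjusted p = 7.57e-05). UQCRC1 (chromosome 3, 48599002 to 48610976, - strand), a core subunit, was higher in KYSE510, at 70.3, 84.0 and 75.1 against 55.9, 58.4 and 57.4 RPKM, a log2 difference of 0.41 (SE 0.08, adjusted p = 0.000689). In complex IV, 1 member was higher and 4 lower of 10. COX5B (chromosome 2, 97646040 to 97648383, + strand) was at 146, 126 and 149 RPKM in KYSE150 and 83.9, 86.1 and 78.8 in KYSE510, a log2 difference of -0.75 (SE 0.09, adjusted p = 2.27e-05). COX6B1 (chromosome 19, 35648223 to 35658861, + strand) was the one that was higher, at 58.0, 76.4 and 75.8 RPKM in KYSE510. Its KYSE150 controls were at 31.8, 32.5 and 56.1, the third far above the others, and the log2 difference was 0.84 (SE 0.22, adjusted p = 0.0055).

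The remaining members called between the lines had log2 differences from -0.79 to 0.71. In complex I, NDUFS1 (0.71), the large iron-sulfur subunit, and NDUFV1 (0.38), which binds NADH, were higher in KYSE510, as were NDUFB1 (0.46), NDUFB6 (0.42), NDUFS5 (0.41), NDUFB9 (0.41) and NDUFB4 (0.39). Lower were NDUFV2 (-0.79), NDUFA1 (-0.78), NDUFB2 (-0.74), NDUFB5 (-0.73), NDUFA2 (-0.51), NDUFB8 (-0.48), NDUFB3 (-0.31), NDUFA9 (-0.29), NDUFA13 (-0.24) and NDUFB11 (-0.21). Some of these calls depended on the fit: NDUFB4 was called in 9 of 20 fits, NDUFA13 in 14, NDUFS5 in 15 and NDUFB11 in 16. The control libraries of the lines overlapped for NDUFB4. In complex III, UQCRFS1 (0.36), the Rieske iron-sulfur protein gene, was higher, and UQCRH (-0.53) and UQCRB (-0.33) were lower. In complex IV, COX7C (-0.40), COX7B (-0.32) and COX6A1 (-0.29) were lower. Of the 38 members called between the lines, 29 were called in all 20 fits. Some of the calls just named for complexes III and IV were also lost in other fits. The 20 members not called lay between -0.57 for COX6C and 0.30 for NDUFC1. They include CYC1, the gene for cytochrome c1 (0.07), and COX4I1 (-0.07).

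**Figure D3:**
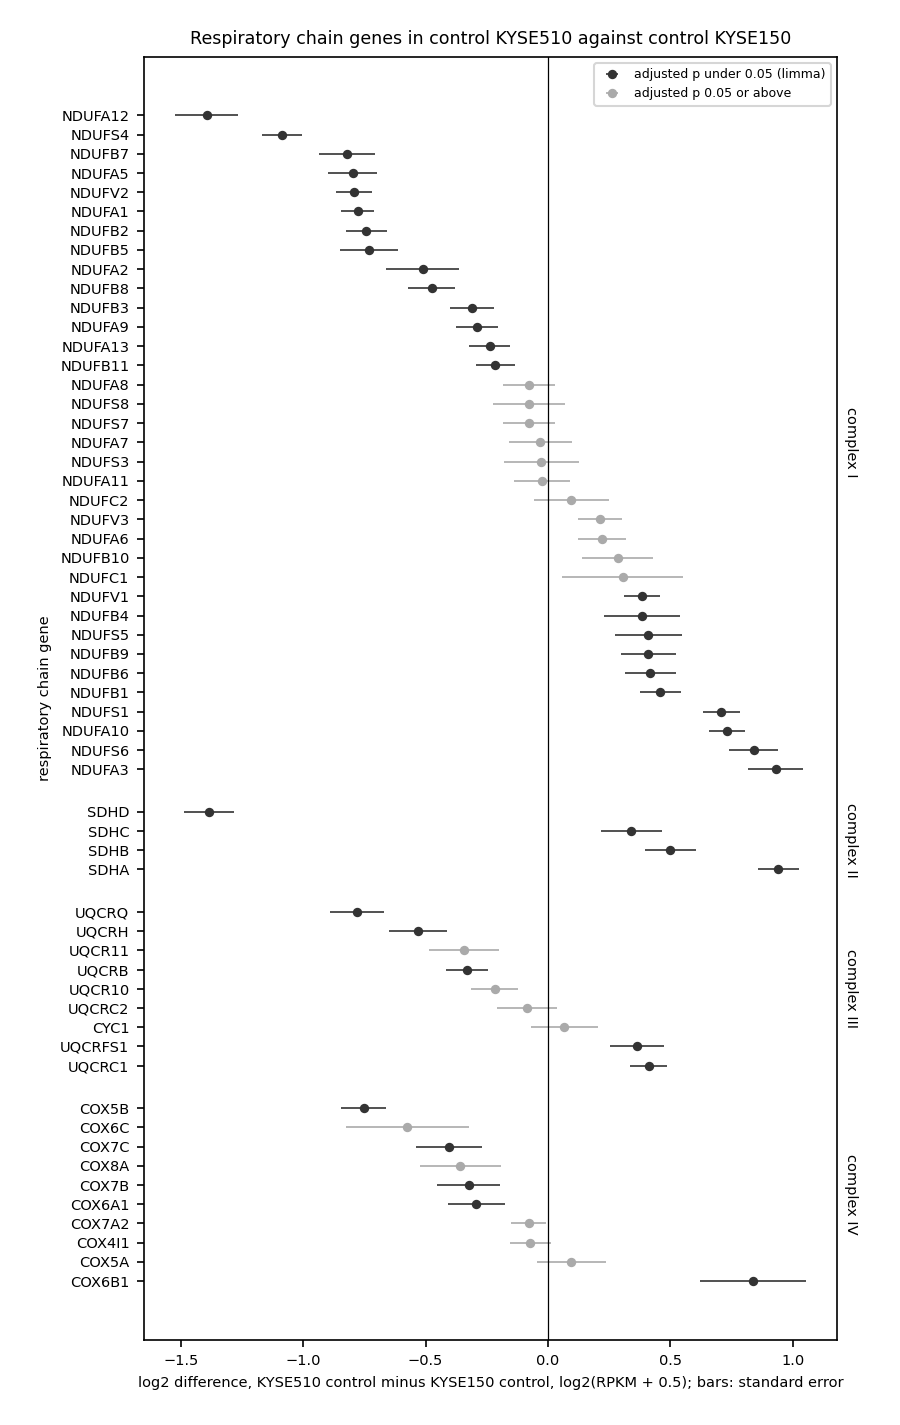
Log2 difference of each of the 58 genes between control KYSE510 and control KYSE150 libraries on the log2(RPKM + 0.5) scale, with its standard error as a bar, grouped by complex; dark points passed the threshold in limma. SDHD, NDUFA12 and NDUFS4 lie beyond -1, and SDHA at 0.94 is the highest value.

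Position was compared with these differences after the values had been seen. For each member the median log2 difference between the lines was taken over the other tested genes whose positions lay within 1 Mb, for the 56 members with at least 5 such neighbours. Member and neighbourhood had the same sign for 40 of 56, and across these 56 genes the Spearman correlation was 0.618 and Pearson's r 0.673. Members that lie near each other share neighbours, and all values come from the same 6 control libraries, so this is a description. The same values over all genes tested are not given here, so nothing particular to the members can be read from them. Near SDHD the median was -0.92 over 16 neighbours, and 15 of them were called lower in KYSE510, where 33.7% of all genes were. Near SDHA it was 0.65 over 15 neighbours and near NDUFS6, on the same chromosome arm, 0.85 over 16. Near NDUFA3 it was 0.90, with 23 of 32 neighbours called higher, and near COX6B1 0.66, with 33 of 51 called higher (28.3% of all genes). NDUFV2, an iron-sulfur subunit of the NADH-oxidising arm with a log2 difference of -0.79, lay among 12 neighbours with a median of -0.75. NDUFS4 was among the members that went against their neighbourhood, at -1.09 beside a median of 0.22 over 9 neighbours. Others were UQCRH (-0.53 beside 0.34), NDUFA2 (-0.51 beside 0.41) and UQCRC1 (0.41 beside -0.27). NDUFA12 at -1.39 exceeded its neighbourhood, which had a median of -0.50 over 15 genes.

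**Figure D4:**
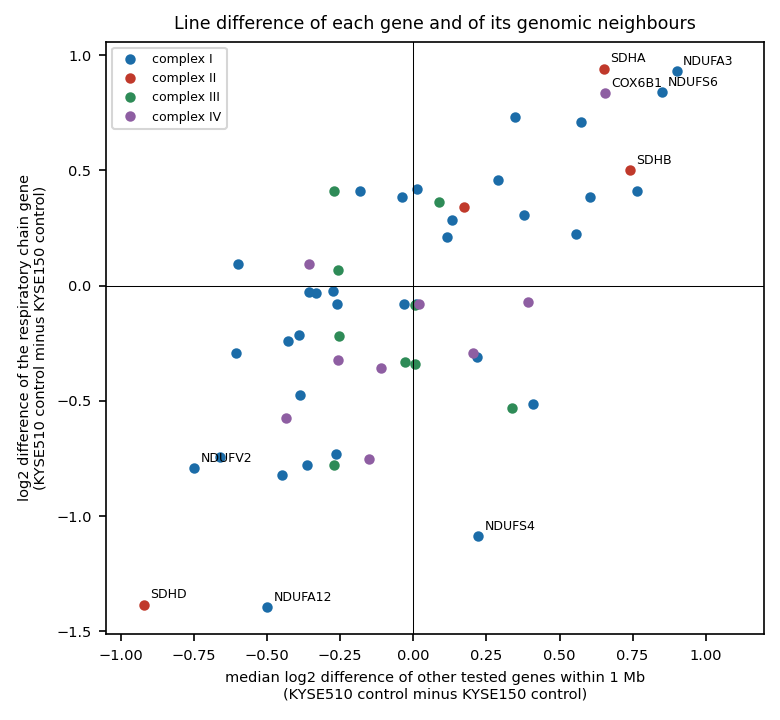
Log2 difference between control KYSE510 and control KYSE150 for each respiratory chain gene (vertical axis) against the median log2 difference of the other tested genes within 1 Mb (horizontal axis), for 56 genes coloured by complex. SDHD lies at the lower left with its neighbours, NDUFA3, NDUFS6, SDHA and COX6B1 at the upper right, and NDUFS4 at the lower right, where gene and neighbours differ in sign.

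Other genes of the pathway were compared in the same fits, from lists of assembly factors, ATP synthase subunits, transcription regulators and subunits made from mitochondrial DNA. With silencing, 0 of 49 assembly factors tested, 0 of 16 ATP synthase genes, 0 of 12 regulators and 0 of 11 mitochondrially encoded subunits were called in either line by limma without the replicate block. With the block, 5 of these genes were called in KYSE150, where 6.7% of all genes were called, and 0 in KYSE510, where 0.112% were. In KYSE150 COA3, a complex IV assembly factor, rose by 0.37 on the log2 scale (adjusted p = 0.0283 in limma with the block) and TFAM, which packages mitochondrial DNA and starts its transcription, by 0.38 (adjusted p = 0.0288). HIGD1A fell by 0.33 (adjusted p = 0.0357), MT-ND2 by 0.36 (adjusted p = 0.0458) and MT-ND3 by 0.47 (adjusted p = 0.0355). For the mean over lines 1 assembly gene passed, with the block (adjusted p = 0.0271 in limma, where 2.74% of all genes passed) and without it (0.539% of all genes). HIGD1A, a factor that acts on complex IV, was at 52.4 ± 0.73 RPKM in the KYSE150 controls and 41.7 ± 3.6 in silenced libraries, and at 41.2 ± 0.57 and 34.6 ± 1.5 in KYSE510, and its mean log2 change was -0.29 (SE 0.05, adjusted p = 0.0346 in limma). The mitochondrially encoded subunits had a median log2 change of -0.19 in KYSE150 and 0.04 in KYSE510. The share of reads from mitochondrial genes was 7.86% to 8.91% in KYSE150 controls, 7.49% to 8.19% in silenced KYSE150, 10.2% to 11.0% in the KYSE510 controls and 10.3% to 11.5% in silenced KYSE510; its part in the members' values was not tested.

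Between the control lines, 10 of 49 assembly factors were higher and 24 lower in KYSE510, where 28.3% of all genes tested were higher and 33.7% lower. Those of complex I included ACAD9 (0.86), NDUFAF3 (1.15) and NDUFAF6 (0.31) on the higher side, and FOXRED1 (-1.24), ECSIT (-1.07) and NDUFAF5 (-0.91) on the lower side. Of the 4 assembly factors of complex II, SDHAF4 was higher (0.72) and SDHAF2, which places the flavin on SDHA, lower (-0.55). Complex III had 2 higher, UQCC2 (0.73) and UQCC3 (0.93), and 3 lower of 6, with UQCC1 at -0.90. Of 24 genes for complex IV assembly, 4 were higher, among them SCO2 (0.85), and 13 lower, among them HIGD2A (-1.30) and COA5 (-1.12). These values are log2 differences, and each gene named passed the threshold in limma.

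Of the 16 ATP synthase genes, 2 were higher in KYSE510 and 10 lower, with a median log2 difference of -0.33. This and the counts below are to be read against 28.3% of all genes called higher and 33.7% called lower. ATPIF1, which encodes the inhibitor of the enzyme, was the highest at 1.19, and ATP5L (-1.11) and ATP5C1 (-1.02) were the lowest. Among the 12 regulators tested, GABPB2 (1.66), ESRRA (0.49, the gene for ERR alpha) and YY1 (0.45) were higher, and TFB2M (-1.10), GABPA (-0.53), TFB1M (-0.43) and PPRC1 (-0.28) lower. NRF1 itself was at 3.61 ± 0.52 RPKM in the KYSE150 controls and 3.603 ± 0.0842 in KYSE510 controls. The coactivator gene PPARGC1A was under 0.5 RPKM and was not tested. Of the 11 subunits made from mitochondrial DNA, 6 were higher in KYSE510 and 1, MT-ND2, lower, with a median log2 difference of 0.39. The summed level of these subunits was 19.0 ± 1.48 times that of the 58 nuclear genes in the KYSE150 controls and 26.3 ± 0.511 times in KYSE510 controls (SD, n = 3).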

How the data were processed

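RNA was measured in 12 libraries of 4 groups, grouped by the labels. The authors deposited RPKM for 38516 genes, with exon positions and summed exon length (another column, in bases, per the file headers). HISAT2, DESeq and the build GRCh38 are named, with no roles, in the submitters' processing notes. RPKM times length gave whole reads for 100% of values (tolerance 0.1 read), and the deposited scale was reads assigned to the listed genes.

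Values were used as log2(RPKM + 0.5), which understates changes of low genes. The 17823 genes at 0.5 RPKM or more in at least 3 libraries were fitted with limma 3.58.1 in R 4.3.3 (4 group means over 12 libraries, 8 residual degrees of freedom, mean-variance trend). Tests were two-sided and adjusted by Benjamini-Hochberg over all genes, with a threshold of 0.05; the fit was tested on simulated data. The labels do not say that replicates were separate cultures, so p-values measure the spread between these libraries only. Between replicates the chi-square per gene ran from 10.3 to 36.6, above sampling noise. Same-numbered silenced and control libraries tended to deviate together (correlations 0.147 to 0.415 in 6 pairs, against -0.385 to 0.184 in 12 others). The ranges overlap: KYSE150 control replicate 2 had 0.184 with silenced replicate 1 and 0.147 with silenced replicate 2. Deviations sum to 0 within a group, so the 2 ranges are not independent. The numbers come from titles and the labels state no pairing. The replicate block is therefore an alternative fit, with 4 residual degrees of freedom.

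Members and lists were chosen with earlier results of these data known. Genes named were, per silencing contrast, those past the threshold and the 3 largest changes in each direction; between lines, the 5 largest in each direction and the largest per complex; the highest and lowest level per complex; and all of complex II. Genes without overlap, genes called in other fits, and regulators and list members past the threshold were added. Alternatives were other pseudocounts, filters, scalings, voom on recovered reads, fewer libraries and the block.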

Additional observations from a re-analysis of the deposited data

How the results depend on the processing

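Counts of members called were within 1.5 times the reported count in 96 alternatives and moved in 5. In KYSE150 the count of 0 became 1 with the replicate block, 11 with voom on recovered reads and the replicate block, and 0 to 3 when 1 library was left out, the 3 without KYSE150 control replicate 3. With voom and the replicate block it became 1 for the mean over lines and 10 for the difference between lines; the replicate block changed no other count on log2 RPKM. No blocked value exists between control lines, which share no block. The 38 calls between control lines ranged from 31 (control libraries alone) to 40 (voom), and 29 members were called in all 20 fits. With 1 library left out the count also ran from 31 to 40. The cause of these changes was not tested.

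Log2 changes that reversed were small: with library median centring, SDHB (-0.0903), SDHC (-0.0460) and SDHD (-0.0290) in KYSE150; with quantile normalization, SDHB (-0.0302) and SDHC (-0.0387) there. With single libraries left out, SDHB in KYSE150 ranged from -0.0337 to 0.11, SDHC in KYSE510 from -0.13 to 0.0103 and UQCR11 in the mean from -0.0016 to 0.16. Of the other comparisons of single members, 802 kept direction and side of the threshold, 9 came to pass it and 6, all SDHC between lines, no longer did. This tally holds only members in the contrasts for which the naming rule picked them. Calls between lines that other members lost, such as NDUFB4, lie outside it. Centring also moved the members' median in KYSE150 to -0.04 and in the difference to -0.03. The members with fewest reads, down to 111 in a library, are the least precise.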
